A study of Mus musculus with 19 samples.

Results

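The genes described here were the TEC and sense intronic genes with a mean of at least 50 normalized counts over 12 samples of retinal microglia. They were 197 genes, 175 of type TEC and 22 of type sense_intronic, among the 1787 genes of both types and the 27299 genes of the table. They were selected on their gene type and on this mean. The rule did not use the difference between groups, but a gene high in only 1 group can reach the mean through that group. Only the control mean reached 50 in 117 genes, only the CNV d3 mean in 2, and both in 78. The RNA-seq data compared 6 samples from lasered eyes at day 3 (CNV d3), a model of choroidal neovascularization in which 6 burns were set per eye, with 6 samples from unlasered control mice. The labels give C57BL/6J mice aged 8 weeks in both groups and cells positive for CD45, CD11b and CX3CR1 and negative for Ly6C and Ly6G. The methods name Cx3cr1GFP/+ mice, in which both groups carry 1 *Cx3cr1* allele replaced by GFP, and cells low for CD45. No source says whether the samples of a group came from separate animals, so p-values measure the spread between these samples, which may in part be technical.

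TEC is the label that the Gencode annotation gives to regions, mostly of a single exon, that have evidence of a polyadenylated RNA and still await an experimental test. A sense intronic gene lies in an intron of another gene on the same strand without touching its exons. Introns are removed from pre-mRNA and mostly degraded in the nucleus, so a read that falls in such a gene can stem from a separate transcript or from RNA of the surrounding gene that was not yet spliced. The counts cannot tell these apart, and the default counting used here did not read the strand.

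All 197 genes were found in the Gencode M21 annotation of GRCm38, which lists 2 of them as protein-coding. A single exon made up 192 of them. Exon length ran from 582 to 30942 bases with a median of 2678. The 3 chromosomes with most of the genes held 91 of them, with 35 on chromosome 5, 29 on chromosome 1 and 27 on chromosome 3. Most lay inside another gene. In 144 genes the whole span lay in a same-strand gene without touching its exons, and in 20 more it lay inside a same-strand gene but overlapped an exon of some gene. A further 21 overlapped a gene on the opposite strand only, 8 overlapped no other gene and 4 overlapped a same-strand gene without lying inside a measured one of another type. The surrounding same-strand gene is called the host below. It was found for 164 of the genes, which shared 136 hosts, 122 of them protein-coding.

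The annotated 3' ends are shown because TEC genes rest on evidence of a polyadenylated RNA. The last 100 bases of 6 genes are given, 5′ to 3′ on the strand of the gene, from the Gencode M21 transcripts on GRCm38. The first 5 were among the genes with the largest or highest-level decreases, and the last had a higher mean in CNV d3. Capitals mark AATAAA, the common polyadenylation signal, where it lies in the last 50 bases.
*Gm45223*, intron of *Picalm*, plus strand, chr7:90137530-90137629: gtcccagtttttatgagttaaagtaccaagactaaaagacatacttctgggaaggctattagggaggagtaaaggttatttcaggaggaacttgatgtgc
*C130089K02Rik*, intron of *Maml3*, minus strand, chr3:52057285-52057384: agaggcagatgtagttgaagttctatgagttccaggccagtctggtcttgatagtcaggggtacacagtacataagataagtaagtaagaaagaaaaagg
*Gm37474*, intron of *Fli1*, minus strand, chr9:32525145-32525244: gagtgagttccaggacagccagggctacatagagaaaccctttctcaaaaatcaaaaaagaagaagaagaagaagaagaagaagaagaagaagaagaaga
*Peg13*, intron of *Trappc9*, minus strand, chr15:72805600-72805699: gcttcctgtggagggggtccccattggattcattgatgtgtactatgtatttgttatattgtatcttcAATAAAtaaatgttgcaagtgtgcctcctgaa
*Gm43462*, intron of *Man1a2*, minus strand, chr3:100627297-100627396: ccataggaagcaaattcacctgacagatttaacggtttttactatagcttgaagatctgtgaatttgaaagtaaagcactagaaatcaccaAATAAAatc
*Gm44545*, opposite strand of *P2ry6*, plus strand, chr7:100951463-100951562: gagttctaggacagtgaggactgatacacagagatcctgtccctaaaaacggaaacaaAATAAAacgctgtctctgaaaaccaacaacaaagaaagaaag

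*Peg13*, *Gm43462* and *Gm44545* carried the signal, while *Gm45223*, *C130089K02Rik* and *Gm37474* did not. The end of *Gm37474* was a run of GAA repeats, and 51 of its 100 bases were A. Searched on the gene's own strand, AATAAA stood in the last 50 bases of 38 of the 192 genes that have 1 transcript of 1 exon and at least 300 bases (19.8%), against 370 of all 1641 TEC and sense intronic genes of that kind (22.5%). The variant ATTAAA stood there in 13 (6.77%), against 146 (8.90%), and a run of 10 A within the last 300 bases in 15 (7.81%), against 72 (4.39%). Among the genes that fell, 17 of 91 had AATAAA (18.7%). These letter matches describe the annotated ends and do not show where the RNA ended in these cells.

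The gene counts of control samples summed to 10963178 to 22335233 reads and those of CNV d3 samples to 23532260 to 29523018, so every control sample was shallower than every CNV d3 sample. In a single sample, the genes described here had between 0 and 3233 reads. A listed 0 allows up to 3 reads, which is 2.22 to 5.96 normalized counts depending on the sample, for counting error only. All 12 microglia markers were read in both groups. Their summed level was 1456438 to 1622755 normalized counts in control and 780344 to 1177738 in CNV d3, and 9 of the 12 fell. All 4 markers of dividing cells rose (88.3 to 792 summed against 5116 to 13262), and 3 of 7 monocyte markers rose (36.1 to 293 against 558 to 2776, with *Ly6c2* and *Chil3* at 0 in all control samples). Of 8 Müller glia and astrocyte markers, *Apoe*, *Dkk3* and *Clu* rose and *Slc1a3* fell (19454 to 41159 against 57428 to 99479). Most of that sum was *Apoe*, which microglia also express, with means of 20865 ± 7381 (SD, n = 6) and then 68946 ± 16057 (SD, n = 6), while *Glul* had 5723 and 4734 and *Slc1a3* 2117 and 1358. None of 8 photoreceptor markers passed (713 to 6615 against 564 to 12347), nor did any of 4 pigment epithelium markers (45.1 to 252 against 86.4 to 336). Of 3 endothelial markers *Kdr* rose and *Pecam1* fell (500.3 to 990 against 443 to 962). Neutrophil markers summed to at most 26.4 in control and 7.21 in CNV d3, and T cell markers to at most 14.1 and 19.1. The part of these cells in the results was not tested, and in bulk samples fewer cells of a type and less RNA per cell cannot be told apart.

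Together, the 197 genes took a smaller share of the reads in every CNV d3 sample than in any control sample. Of all counted reads, 0.176, 0.233, 0.165, 0.179, 0.157 and 0.171% fell on them in control samples 1 to 6, and 0.0638, 0.0568, 0.0470, 0.0747, 0.0569 and 0.0605% in CNV d3 samples 1 to 6. The groups did not overlap: the lowest control share was 2.10 times the highest CNV d3 share. The control mean was 0.180% ± 0.0273 (SD, n = 6), that of CNV d3 0.0599% ± 0.00917 (SD, n = 6), and their ratio 3.01. Control sample 2 stood above the others, and without it the control mean was 0.170% ± 0.00916 (SD, n = 5) and the ratio 2.83. The 136 hosts moved far less. Their share was 1.86% ± 0.138 (SD, n = 6) for control, that for CNV d3 1.67% ± 0.0565 (SD, n = 6), and the ratio 1.11. For the 144 genes in introns the ratio was 3.40, and for the 33 without a host it was 1.85. The share of mitochondrial reads moved with the groups, from a control mean of 0.407% ± 0.0555 (SD, n = 6) up to one of 0.576% ± 0.109 (SD, n = 6), and its part in the result was not tested.

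**Figure D1:**
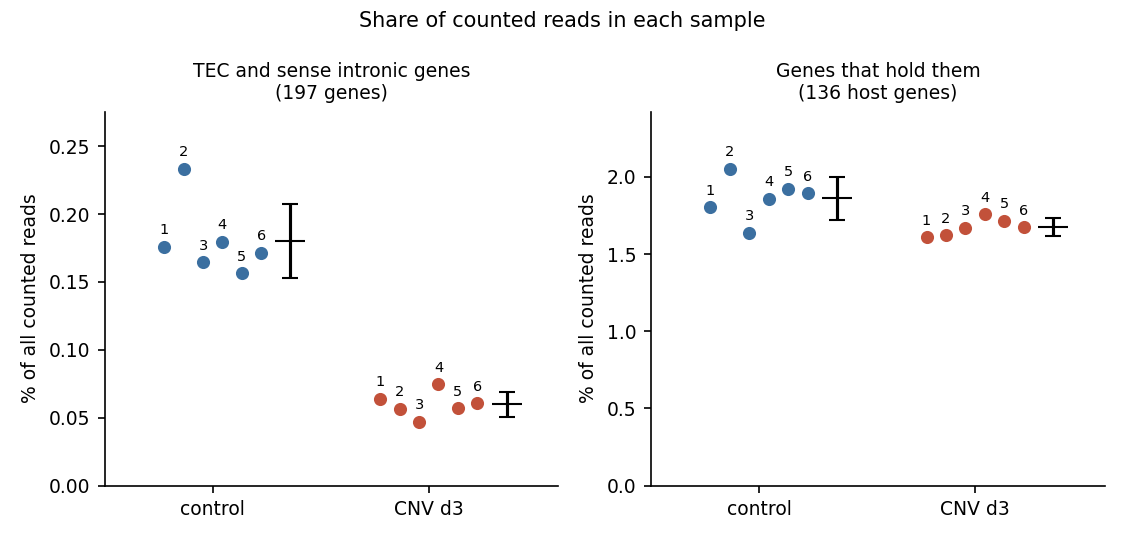
Percent of all counted reads on the 197 TEC and sense intronic genes (left) and on the 136 genes that hold them (right) in each of 6 control and 6 CNV d3 samples, with replicate numbers beside the points and mean ± SD as bars. On the left all CNV d3 samples lie at or below 0.0747% and all control samples at or above 0.157%, while on the right the group means are 1.86% and 1.67%.

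The change was in 1 direction for nearly all of these genes. On the log2(normalized counts + 1) scale, 186 of 197 had a log2 fold change below 0 in CNV d3 against control and 11 above 0. By limma over all 27299 genes with Benjamini-Hochberg adjustment, 94 fell at an adjusted p under 0.05 and 0 rose, where 4.57% of all genes fell and 8.29% rose. Without adjustment 129 passed as lower and 0 as higher. As DEG, which needed an absolute log2 fold change above 1.5 as well, 78 decreased and 0 increased, against 1.07% and 3.91% of all genes. All 6 CNV d3 values lay below all 6 control values in 62 genes and above them in 0, against 2.83% and 4.64% of all genes. edgeR and DESeq2 on the recovered reads called 90 and 139 genes as lower and likewise 0 as higher.

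The median log2 fold change was -1.53, with quartiles of -2.28 and -0.88 and a range from -4.76 to 1.46. It was 0.15 over all genes tested. Within 1 log2 unit of the median lay 136 of the 197 genes, while the median SE of a single gene was 0.55. The 175 TEC genes had a median of -1.49 with 81 that fell, and the 22 sense intronic genes a median of -1.92 with 13 that fell. Among other gene types with the same minimum mean, the median was 0.10 for 10152 protein-coding genes (954 fell, 1581 rose), -0.38 for 107 lincRNA genes (26 fell, 4 rose), -0.80 for 93 antisense genes (31 fell, 2 rose) and -0.56 for 82 processed transcripts (25 fell, 7 rose).

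The minimum mean bears on these counts, because a gene high in only 1 group can reach it through that group. Only the control mean reached 50 in 117 genes, only the CNV d3 mean in 2, and both in 78. In the 78 genes, 72 had a log2 fold change below 0, 43 fell and 0 rose, with a median of -1.35. The 1590 TEC and sense intronic genes under the minimum had a median of -0.17, and 30 fell and 19 rose. The share of genes called differed with the mean level. Of the 26 genes with a mean of 200 or more, 23 fell, with a median SE of 0.30. Of the 76 with a mean between 50 and 75, 23 fell, with a median SE of 0.71, although their median log2 fold change was -1.44 against -1.80 in the first group.

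**Figure D2:**
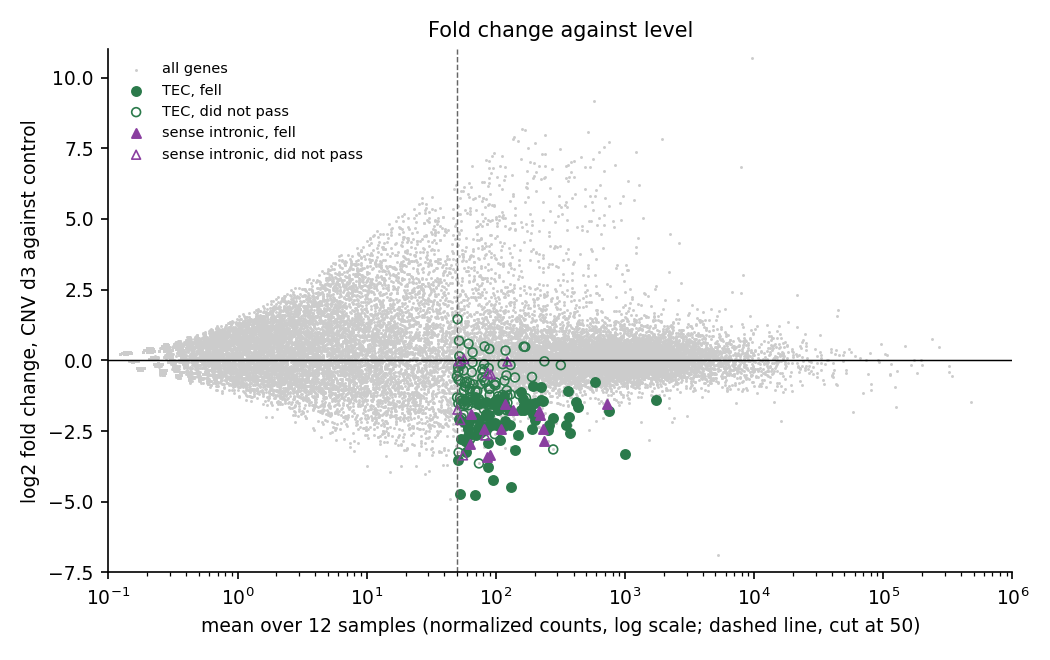
Log2 fold change of CNV d3 against control on the log2(normalized counts + 1) scale (vertical) against the mean over 12 samples in normalized counts (horizontal, log scale) for all genes (grey), TEC genes (circles) and sense intronic genes (triangles). Filled symbols fell at an adjusted p under 0.05. Right of the dashed line at 50, 186 of the 197 symbols lie below 0 and none of the 11 above 0 is filled.

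*Gm44860* (chr7:90030571-90032916, plus strand) had the highest mean and lies in an intron of the non-coding gene *E230029C05Rik*. Its values ran from 1411 over a median of 2704 to 3390 normalized counts in control and from 782 over 892 to 1182 in CNV d3. The groups did not overlap, and the gene fell by 1.39 on the log2 scale (SE 0.21, adjusted p = 0.000493, limma). Per kilobase of exon it also had the highest level in control, with 1078 normalized counts. *Gm45223* (chr7:90132492-90137629, plus strand) lies in an intron of *Picalm*, which encodes a clathrin assembly protein. It ran from 659 over 1078 to 1927 in control and from 226 over 323 to 441 in CNV d3, again without overlap, and fell by 1.80 (SE 0.23, adjusted p = 0.000146, limma).

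*C130089K02Rik* (chr3:52057285-52064244, minus strand), in an intron of the Notch coactivator gene *Maml3*, had the largest decrease among the 10 genes of highest mean. In control it ran from 1275 over 1486 to 3273 normalized counts and in CNV d3 from 34.9 over 163 to 581. No CNV d3 value reached the control range, but both groups were spread widely, with control sample 2 far above the other 5. It fell by 3.30 (SE 0.51, adjusted p = 0.000581, limma). *Gm37474* (chr9:32525145-32526958, minus strand) lies in *Fli1*, the gene of an ETS transcription factor of blood and endothelial cells. Its values were 477 to 1003 in control with a median of 580 and 66.5 to 181 in CNV d3 with a median of 105. They did not overlap, and the gene fell by 2.55 (SE 0.28, adjusted p = 5.46e-05, limma).

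*A130071D04Rik* (chr1:138161820-138167683, minus strand) lies in *Ptprc*, the gene of CD45, one of the proteins the cells were sorted by. It ran from 465 over 617 to 991 normalized counts in control and from 129 over 192 to 336 in CNV d3, with no overlap, and fell by 1.65 (SE 0.25, adjusted p = 0.000478, limma). *Gm37472*, in the non-coding gene *Dleu2*, fell by 1.99. The other 3 of the 10 highest overlapped exons of other genes, so part of their reads may be missing or uncertain under the counting used. *6430511E19Rik* fell by 1.47, *C230096K16Rik*, within *Klf3*, by 1.09 and *Gm42602*, within *Gm42601*, by 0.77. The groups overlapped in *Gm42602* alone among the 10, and its call (adjusted p = 0.0243, limma) was lost when any of 7 samples was left out (control 1, 2 or 4, or CNV d3 2, 3, 5 or 6), with an adjusted p of up to 0.0672.

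**Figure D3:**
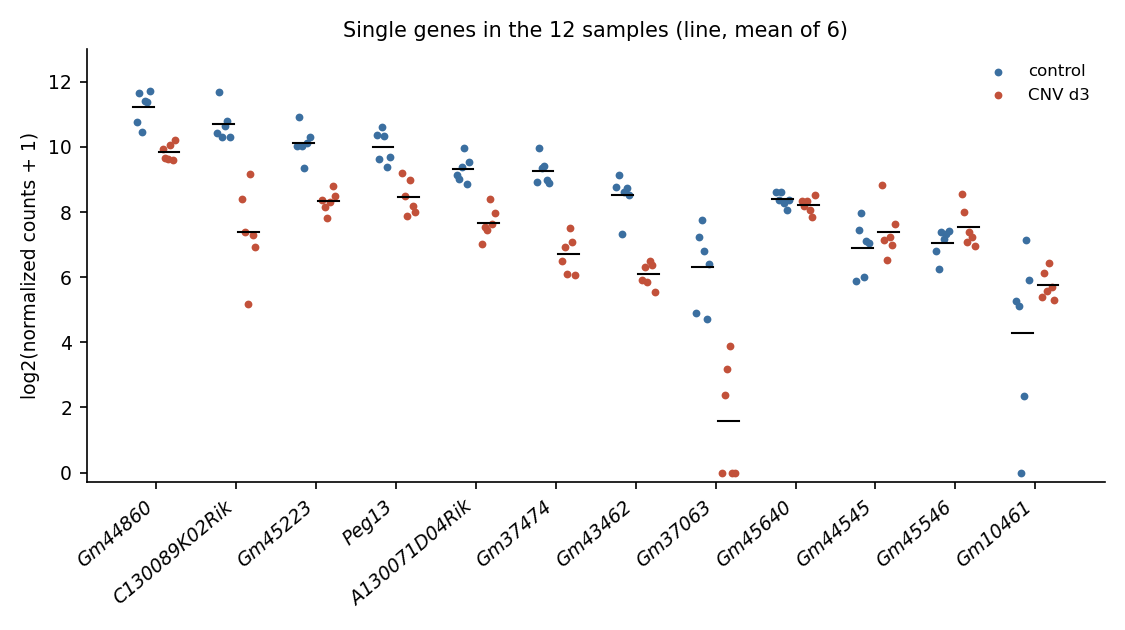
Values of 12 genes in 6 control (blue) and 6 CNV d3 (red) samples as log2(normalized counts + 1), with a line at each mean. The first 8 genes fell without overlap between the groups, *Gm45640* overlaps at nearly the same level, and *Gm44545*, *Gm45546* and *Gm10461* have higher CNV d3 means within overlapping values.

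The largest decreases were found in genes of lower level that were close to 0 in several CNV d3 samples. *9430053O09Rik* had 22.5 to 292 normalized counts in control (median 137) and 0 to 17.6 in CNV d3 (median 3.0), and fell by 4.76 (SE 0.93, adjusted p = 0.00314, limma). It lies opposite to *Mir99ahg*, the host gene of microRNAs including miR-99a, and overlaps the TEC gene *Gm38071* there, so that without strand its reads cannot be assigned to 1 strand. *Gm37063*, in an intron of *Mir99ahg*, had 25.1 to 214 in control (median 97.0) and 0 to 13.9 in CNV d3 (median 2.09), and fell by 4.72 (SE 0.92, adjusted p = 0.00302, limma). In both genes the lowest control value lay just above the highest CNV d3 value.

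*Gm37298*, in the non-coding gene *Gm4258*, had 96.6 to 487 normalized counts in control and 0 to 61.0 in CNV d3 and fell by 4.46. *3110080O07Rik*, in *Maml3* like *C130089K02Rik*, had 33.8 to 287 in control and 0 to 16.7 in CNV d3 and fell by 4.22. Both genes of *Maml3* thus fell, from different levels. *Gm43792* in *Apbb2* fell by 3.54, but not without control sample 5 (adjusted p = 0.0538, limma). *Gm42463*, a sense intronic gene in *Tdrkh*, fell by 3.43, a call that was kept in 4 of the 12 runs that left out 1 sample and lost without control 1, 2, 3, 5 or 6 or CNV d3 1, 3 or 6 (adjusted p up to 0.0889). *Gm47664*, in an intron of *Elmo1*, which encodes a regulator of cell engulfment, was the most even of the 8 largest decreases. It ran from 92.3 over 155 to 255 normalized counts in control and from 8.05 over 16.3 to 22.5 in CNV d3, and fell by 3.34 (SE 0.42, adjusted p = 0.000146, limma). By edgeR the log2 fold changes of *Gm37298*, *Gm43792* and *Gm42463* were smaller, at -3.29, -2.92 and -2.68, while that of *Gm47664* was -3.37. *Gm43792* and *Gm42463* did not pass there (adjusted p = 0.0532 and 0.0546, edgeR).

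Among the 22 sense intronic genes 21 had a log2 fold change below 0, 13 fell, all 13 of them DEG, and 11 had groups that did not overlap. *Peg13* (chr15:72805600-72810324, minus strand), an imprinted non-coding RNA gene within *Trappc9*, had the highest mean. It ran from 674 over 1057 to 1554 normalized counts in control and from 234 over 323 to 588 in CNV d3. The groups did not overlap, and *Peg13* fell by 1.55 (SE 0.27, adjusted p = 0.00141, limma), while *Trappc9* had a log2 fold change of -0.38 (adjusted p = 0.195, limma). *Gm43462* (chr3:100627297-100630944, minus strand), in the mannosidase gene *Man1a2*, ran from 159 over 411 to 561 in control and from 45.7 over 68.8 to 90.0 in CNV d3, and fell by 2.43 (SE 0.31, adjusted p = 0.000146, limma). *Gm29488*, in *Srgap2*, fell by 2.85, with a control mean of 393 ± 142 (SD, n = 6) and a CNV d3 mean of 74.6 ± 74.7 (SD, n = 6). *Gm50462* in *Zfp532*, *Gm43696* and *A530041M06Rik*, both in *Lrig2*, and *Gm50012* in *Rhoq* fell by 1.53 to 1.93. In *Gm43696* the groups overlapped, with 99.3 as the lowest control and 152 as the highest CNV d3 value.

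A host gene was measured for 164 of the genes, which allowed each to be set beside the gene it lies in. The hosts themselves had a median log2 fold change of -0.27, and 38 of 136 fell (27.9%) and 17 rose (12.5%). Of all genes 4.57% fell and 8.29% rose, and of all genes with a mean of at least 50, 10.7% and 14.9%. The share of hosts that rose was thus not above that of genes with this minimum mean. Of the 87 genes with a host that fell, 34 lay in a host that fell, 41 in a host that did not pass and 12 in a host that rose. The level per kilobase, as a percent of the level per kilobase of the host's exons, had a median of 26.1% in control and 7.35% in CNV d3 over the 141 pairs with a protein-coding host. Over the 23 pairs with a non-coding host it was 65.3% and 83.0%. The log2 fold change of a gene minus that of its host was below 0 in 152 of 164 pairs, with a median of -1.50 for protein-coding and -0.38 for non-coding hosts. It was tested with limma over all 1158 TEC and sense intronic genes with a host, with Benjamini-Hochberg adjustment over these pairs. In 24 pairs the gene was lowered relative to its host (adjusted p under 0.05), against 4.23% of all pairs, and in 0 pairs it was raised, against 0.691%. This count depended on single samples, on the treatment of low values and on the model. Leaving out 1 sample gave between 6 pairs (without control sample 2) and 24, and a filter on low values gave 55. A model with the replicate number as a block gave 0 pairs, so none of the single differences below passed in it. The log2 fold changes of gene and host had a Spearman correlation of 0.13 across the 141 pairs with a protein-coding host and of 0.74 across the 23 with a non-coding host. The pairs share samples and in part hosts.

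The 24 pairs all had a protein-coding host. *Gm45223* differed from *Picalm* by -2.14 (SE 0.47, 95% interval -3.15 to -1.14, adjusted p = 0.0241, limma), with *Picalm* at a control mean of 4789 ± 622 (SD, n = 6) and a CNV d3 mean of 6062 ± 552 (SD, n = 6). *Picalm* rose by 0.34 on the log2 scale, but its own call was lost in 6 of the 12 runs that left out 1 sample (control 1, 3 or 4, or CNV d3 3, 5 or 6; adjusted p up to 0.0640). *C130089K02Rik* differed from *Maml3* by -2.49 (SE 0.56) and *3110080O07Rik* by -3.41 (SE 0.77), although *Maml3* itself fell by 0.81, a call lost in 9 of the 12 runs (control 2 to 5 and CNV d3 2 to 6; adjusted p up to 0.0808).

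The 5 largest negative differences were those of *Gm44144* from *Nr6a1* (-5.02), *Gm43024* from *Wars2*, *Gm37519* from *Sdccag8* (-3.57), *Gm45191* from *Prkcb* (-3.43) and *3110080O07Rik* from *Maml3*. *Prkcb*, the gene of a protein kinase C, rose by 0.85, while *Gm45191* in its intron ran from 57.6 to 180 normalized counts in control and from 0.801 to 49.2 in CNV d3. *Nr6a1* had only 8.52 ± 6.54 (SD, n = 6) normalized counts in control, fewer than *Gm44144*, which overlaps an exon on the opposite strand. The difference of *Gm43024* did not pass. The calls of *Gm44144*, *Gm37519* and *Gm45191* as having fallen were kept in 3, 5 and 5 of the 12 runs, with an adjusted p of up to 0.0916, 0.0718 and 0.0826 by limma. *Gm44144* lost it without control 1, 2, 3, 4 or 6 or CNV d3 1, 2, 3 or 6, *Gm37519* without control 2 to 6 or CNV d3 5 or 6, and *Gm45191* without control 1 to 5 or CNV d3 2 or 4.

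The largest positive differences did not pass. They were those of *C130023A14Rik* from *Mir99ahg* (1.96, SE 1.14), *Gm50010* from *Gm1976* (1.64, SE 1.21), *Gm26930* and *Gm37124* from *Gm4258* (1.00 and 0.79) and *Gm45640* from *Chd9* (0.89, SE 0.44). The 3 hosts other than *Chd9* are non-coding, and all fell, *Gm1976* in 3 of the 12 runs only (not without control 1, 2, 4 or 5 or CNV d3 1, 2, 4, 5 or 6). *Chd9*, a chromatin remodeler gene, fell by 1.06, while *Gm45640* in its intron had 267 to 395 normalized counts in control and 232 to 365 in CNV d3 (log2 fold change -0.17, SE 0.18, 95% interval of the difference from *Chd9* -0.06 to 1.84).

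**Figure D4:**
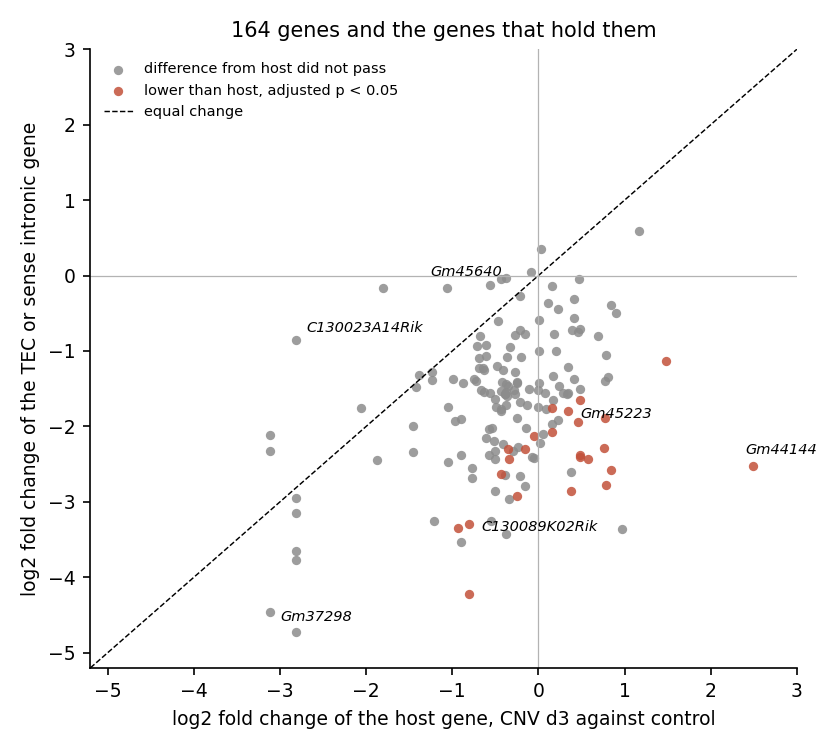
Log2 fold change of 164 TEC and sense intronic genes (vertical) against that of the gene each lies in (horizontal), CNV d3 against control. Red points (24) differed from their host at an adjusted p under 0.05, and 152 of the 164 points lie below the dashed line of equal change.

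Hosts with several of the genes show how uniform the change was within a locus. There were 21 such hosts with 49 genes, and in all 21 every gene had a log2 fold change below 0. The median range within a host was 0.92. *Fkbp5*, the gene of a co-chaperone of the glucocorticoid receptor, rose by 0.48, while *Gm49838* and *Gm49839* in its introns fell by 2.41 and 2.38. In *Picalm*, *Gm45222* fell by 1.56 beside *Gm45223*, and *Gm45220* had a log2 fold change of -1.21 (adjusted p = 0.306, limma). In *Atp8a1*, the gene of a phospholipid flippase that rose by 0.49, *Gm42466* fell by 1.64, and *D630030B08Rik* and *Gm42735* had log2 fold changes of -1.50 and -0.71 that did not pass.

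The non-coding host *Mir99ahg* fell by 2.82, with a control mean of 2657 ± 865 (SD, n = 6) and a CNV d3 mean of 396 ± 148 (SD, n = 6). It held 6 of the genes, of which *Gm37063*, *Gm38071* and *Gm37606* fell, with log2 fold changes of -4.72, -3.77 and -3.15. *Gm21816* and *Gm36963* had log2 fold changes of -3.64 and -2.95 with an adjusted p of 0.103 and 0.0539 by limma, and *C130023A14Rik* one of -0.85 (SE 1.14). *Gm4258* fell by 3.11, as did *Gm37298* and *Gm37124* in it (log2 fold changes of -4.46 and -2.32), while *Gm26930* had a log2 fold change of -2.11 that did not pass. In these non-coding hosts gene and host had the same sign, while in *Picalm*, *Atp8a1* and *Fkbp5*, which rose, they had opposite signs. Opposite signs were not the rule for coding hosts, as 80 of the 122 protein-coding hosts had a log2 fold change below 0.

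**Figure D5:**
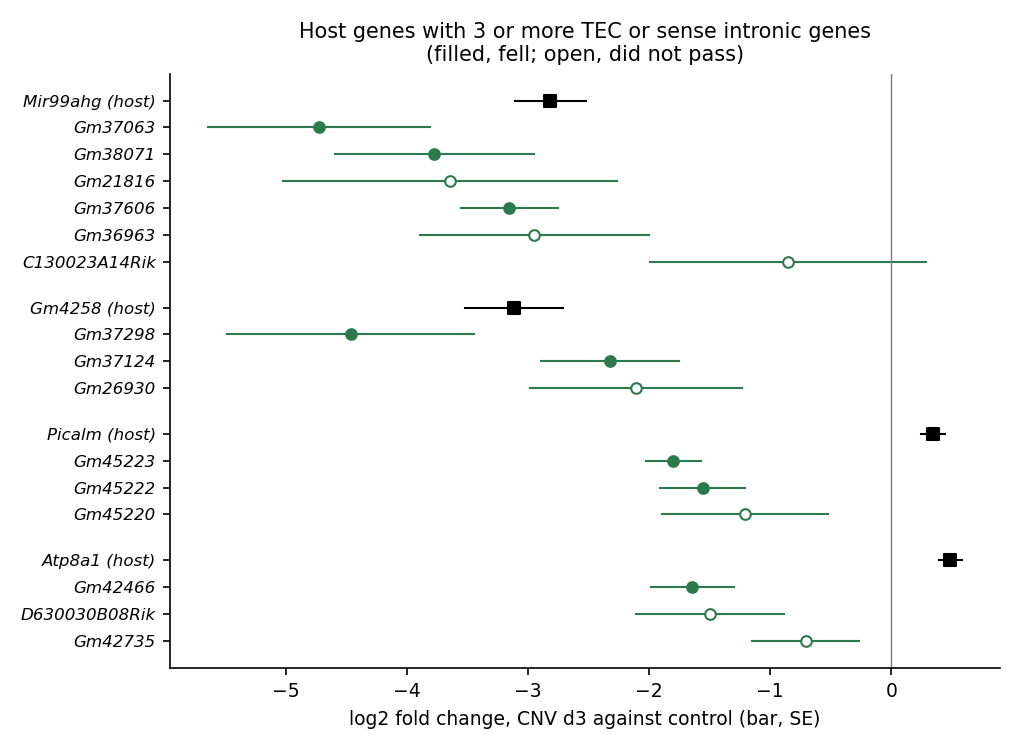
Log2 fold change of CNV d3 against control (horizontal, bar for the SE) of the 4 hosts with 3 or more TEC or sense intronic genes (squares) and of these genes (circles, filled where the gene fell). *Mir99ahg* and *Gm4258* fell with their genes, at -2.82 and -3.11, while *Picalm* and *Atp8a1* lie at 0.34 and 0.49 and their genes between -1.80 and -0.71.

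The change differed in size by where a gene lay, as a description of counts. In introns of a same-strand gene 142 of 144 genes had a log2 fold change below 0, 78 fell, and the median was -1.66. Genes inside a same-strand gene that overlapped an exon had a median of -1.23 (9 of 20 fell). Genes that overlapped only an opposite-strand gene had one of -0.85 (5 of 21 fell), genes that overlapped no other gene one of -0.48 (2 of 8 fell), and the 4 others one of 0.03 (0 fell). Over all 33 genes without a host, 25 had a log2 fold change below 0, 8 above 0 and 7 fell, with a median of -0.61. The difference between these sets was not tested. *Gm42944*, which overlaps no other gene, had the largest decrease in mean log2 value among those 8. It ran from 164 to 732 normalized counts in control and from 0 to 174 in CNV d3, with a log2 fold change of -3.15 that did not pass (SE 1.02, adjusted p = 0.0551, limma).

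The spread between samples was larger for these genes than for protein-coding genes of the same minimum mean. The median SD of log2(normalized counts + 1) was 0.93 in control and 0.71 in CNV d3, against 0.41 and 0.24 in protein-coding genes, whose levels were on the whole higher. At least 1 sample had 0 reads in 44 genes. Of the 29 genes with a 0 in a control sample 0 fell, while 10 of the 21 with a 0 in a CNV d3 sample did. A 0 lowers the mean log2 value of its own group and widens its spread. These counts are therefore in part set by how the genes were sorted. *9930024M15Rik*, in *Sesn1*, had 0 in control samples 3 and 4 and 63.6 to 158 in the other 4, and 0 to 34.6 in CNV d3, with a log2 fold change of -1.52 (SE 1.48). *Gm37101*, in *Nek7*, among the genes of largest CNV d3 spread, ran from 12.1 to 409 in control. *Gm37648*, *Gm26814* and *Gm38125* were, like *9930024M15Rik*, among those of largest control spread, each with 0 in at least 1 control sample. In none of these 5 genes did the difference pass. *Gm37298* and *Gm42463*, also of largest CNV d3 spread, fell as given above.

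Single samples moved many of the genes at once. Control sample 2 had the highest control value in 56 of the 197 genes (28.4%) and the lowest in 9, while control samples 3 and 5 had the lowest in 47 and 43. Among protein-coding genes of the same minimum mean, control sample 2 was highest in 13.4%. CNV d3 sample 4 had the highest CNV d3 value in 67 genes (34.0%), against 15.7% of protein-coding genes, and CNV d3 sample 3 the lowest in 72 (36.5%), against 19.8%. The median value over the 197 genes was accordingly 55.4 normalized counts in CNV d3 sample 4, 29.5 in sample 3 and 40.6 to 43.5 in the other 4, all below the range of 121 to 167 in control. Each CNV d3 sample on its own had 183 to 192 of the 197 genes below the control median and 88 to 116 below the lowest control value. CNV d3 sample 4 was also the only CNV d3 sample listed in 2 parts, as every control sample was. The listing in parts thus ran with the groups except in this sample, and its role in the result was not tested. The methods, however, describe 2 files of mapped reads, from separate flow cells, that were merged for every sample. Without control sample 2, 75 genes fell, and without CNV d3 sample 4, 91 did. Of the 94 genes, 69 kept the call in all 12 runs that left out 1 sample.

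None of the genes rose, and the 11 with a log2 fold change above 0 were within the spread of the samples. *Gm10461* (1.46, SE 0.99) overlaps an exon of *Yes1* on the opposite strand and also a gene on its own strand. It had 0 to 141 normalized counts in control and 38.2 to 85.7 in CNV d3. Its means were 45.9 ± 51.4 (SD, n = 6) and 55.1 ± 18.4 (SD, n = 6), and its log2 fold change was 0.28 by edgeR, with a control sample at 0. *Gm37125* (0.69, SE 0.96) overlaps no other gene, and had 3.97 to 94.4 in control and 1.66 to 91.3 in CNV d3. These 2 were the genes that reached the minimum mean only through CNV d3. *Gm49759* in *Pkm* (0.59) and *2210406H18Rik* (0.49) had lower means in CNV d3 and turned to -0.94 and -0.38 by edgeR. Each had a control sample at 0, which weighs more on the log scale.

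*Gm44545* (0.48, SE 0.43) had 58.0 over 135 to 248 normalized counts in control and 91.3 over 144 to 454 in CNV d3. The highest value was that of CNV d3 sample 1, and the other 5 lay within the control range. The gene lies opposite to *P2ry6*, the gene of a nucleotide receptor of microglia, which had a log2 fold change of -0.24 (adjusted p = 0.104, limma). *Gm45546* (0.48, SE 0.32) overlaps no other gene and had 75.9 over 150 to 169 in control and 125 over 158 to 372 in CNV d3, so the groups overlapped. The other 5 were *Gm34220*, *Gm47260*, *Gm43737*, *Gm49731* and *Gm15513*, at 0.40 to 0.05, and 8 of the 11 had no host. Closest to 0 were *Gm38190*, *Gm44250*, *Gm29170*, *Gm15513* and *2510016D11Rik*, between -0.05 and 0.05. *Gm44250* had 157 to 205 in CNV d3 but 7.88 to 550.1 in control, and its SE was 0.77.

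The 26 listed genes of nuclear RNA turnover, which include the RNA exosome, its nuclear cofactors and the cap-binding complex, had a median log2 fold change of 0.00. *Srrt* and *Zc3h18*, whose proteins link the cap-binding complex to RNA decay, and *Ncbp2*, the gene of a subunit of that complex, rose by 0.71, 0.70 and 0.61, and the exosome subunit gene *Exosc1* and the cofactor gene *Zcchc7* fell by 0.79 and 1.14. These were 3 and 2 of 26 genes. Of all genes 8.29% rose and 4.57% fell, and of all genes with a mean of at least 50, 14.9% and 10.7%. Each run that left out 1 sample had 0 to 2 in place of the 3 that rose. Without control sample 3, 4 fell. Among 10 measured long non-coding RNAs known to stay largely in the nucleus or to host small nucleolar RNAs, *Malat1* fell by 2.14 (control mean 26374 ± 5025, CNV d3 mean 5932 ± 908 normalized counts, SD, n = 6 each), and *Kcnq1ot1*, *Firre* and *Tug1* fell by 1.80, 1.01 and 0.60. Thus 4 of the 10 fell, against 4.57% of all genes. With a mean of at least 50, 24.3% of lincRNA, 33.3% of antisense and 30.5% of processed transcript genes fell. The gene type given for *Tug1* and *Snhg11* is protein-coding. *Neat1* had a log2 fold change of -0.25 that did not pass, and *Gas5* rose by 0.57, a call lost without control sample 6 or any of CNV d3 samples 2 to 6. *Snhg12* and *Snhg1* had log2 fold changes of 2.21 and 0.98 that did not pass. *Miat* had 44.7 normalized counts in control sample 4 and 0 in all other samples, and *Snhg11* had at most 10.4 in any sample. Control means were 7.44 and 0.35 and CNV d3 means 0 and 1.87 normalized counts for *Miat* and *Snhg11*. Their log2 fold changes of -0.92 and 0.38 did not pass but enter the median of the 10, which was -0.42.

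On both sides of the minimum mean of 50 lay genes with log2 fold changes below 0. Just inside it were *2310043P16Rik* (50.002), *Gm43857* (50.1) and *Gm43378* (50.3), with log2 fold changes of -0.57, -1.31 and -1.74, and just outside it *Gm49783* (49.9), *Gm42611* (49.4) and *Gm37589* (49.1), with log2 fold changes of -1.43, -1.81 and -3.03.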

How the data were processed

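Groups came from the labels of the samples. Of the listed samples, 7 (the controls and replicate 4 of CNV d3) came in 2 parts, each pair with 1 column of values. The methods describe a merge of 2 files of mapped reads, from separate flow cells, for every sample. The authors mapped reads with STAR 2.7.2b to GRCm38.p6 with Gencode M25, counted them per gene with featureCounts 1.6.4 at default parameters, which ignore strand and leave out reads in exons of more than 1 gene, and removed genes without reads. The deposited signal, called normalized counts here, holds reads per gene scaled by the authors with DESeq2 1.22.2 size factors. Every sample's values were multiples of what 1 read is worth (100% whole, relative tolerance 1e-06), so reads could be recovered. Columns with the authors' fold changes and adjusted p-values were not used.

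The values being no raw counts, the groups were compared with limma 3.58.1 (R 4.3.3) on log2(value + 1), with a variance trend, over 27299 genes and with Benjamini-Hochberg adjustment. Fold changes of low genes can be understated or overstated on this scale. A gene rose or fell at an adjusted p under 0.05, and a DEG had to exceed 1.5 in absolute log2 fold change as well. edgeR 4.0.16 and DESeq2 1.42.0 on the recovered reads were alternatives. The scripts were tested on simulated data. Positions, hosts and sequences came from Gencode M21 on GRCm38, to which 27238 genes matched by identifier. A host is a same-strand gene of another type whose span holds the whole gene, protein-coding before others and then of the highest mean.

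The genes, lists and rules were chosen with earlier results of these data known. Named were the 10 highest means, the 8 largest decreases without overlap, the 5 highest log2 fold changes, the 5 closest to 0, the 5 largest SD in each group, the 8 highest sense intronic genes, the 5 largest differences from a host in each direction, and 3 genes on either side of the minimum mean. Other genes were named after their values were seen, for sharing a host or having a log2 fold change above 0. Other scalings, pseudocounts, filters and models, a replicate block and leaving out each sample were tried. Scaling to protein-coding reads, thinning to the shallowest sample, a host mean of at least 50 and intronic genes alone were added after the data were seen. Intervals and limits from counts cover counting error only.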

Additional observations from a re-analysis of the deposited data

Results flagged for a closer look

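In 104 groups of 6 samples, the gap of the highest or lowest sample to its neighbour was tested against the range of the group by Dixon's 95% criterion, and 9 groups held a sample apart. Chance marks about 1 in 20 groups. The share of reads on the 197 genes was 0.233% in control sample 2, with 0.179% as the next value. *C130089K02Rik* had 3273 normalized counts in control sample 2, with 1781 as the next value. In control, *Gm37101* had 409 in sample 3, *C130023A14Rik* 326 in sample 4 and *2310043P16Rik* 178 in sample 1. In CNV d3, *Gm44545* had 454 in sample 1, *Gm38125* 53.2 in sample 6, and *Gm26814* and *Gm29488* had 95.2 and 222 in sample 4. Of the 9 values, 2 came from control sample 2 and 2 from CNV d3 sample 4, the samples with the highest share of reads on these genes in their groups.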

How the results depend on the processing

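No alternative called a gene as having risen, and the number that fell stayed within 1.5 times the reported 94 in all but the narrower sets: 53 with a mean of at least 100 and 43 with a mean of at least 50 in each group. DEG decreased were 41 and 30 in these sets, and leaving out 1 sample gave 75 to 93 genes that fell and 58 to 77 DEG decreased. The number of genes lower than their host was least stable: 49 with a pseudocount of 5, 55 with a filter on low values, 0 with a replicate block, 11 and 9 in the narrower sets, and 6 to 24 when 1 sample was left out. The cause was not tested. No source states whether same-numbered samples were handled together. Their deviations correlated at -0.05 to 0.06, and 1 of 6 samples matched its own number best. These values show no shared effect but cannot exclude that such samples were handled together. With the replicate block 79 genes fell. Over all genes, DESeq2 called 572 DEG decreased against 293.

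Turnover genes that rose were 0 with upper quartile scaling, without a trend or with the replicate block, and 0 to 2 when 1 sample was left out. Those that fell were 5 by DESeq2 and 2 to 4 when 1 sample was left out. Nuclear long non-coding RNAs that rose were 0 with upper quartile scaling, without a trend, with the replicate block or after thinning, and 0 to 1 when 1 sample was left out. Signs turned only in genes that had not passed: *Gm49759* (edgeR -0.94, DESeq2 -0.96), *2210406H18Rik* (-0.38, -0.40), *Gm15513* (-0.51, -0.52, upper quartile scaling -0.020, pseudocount 5 -0.043), *Gm42601* (-0.043, -0.040), *Gm38190* and *Gm29170* (pseudocount 0.5: 0.11 and 0.12), and *Gm44250* and *2510016D11Rik* (thinning: 0.13 and 0.28). Leaving out 1 sample, they ranged from -0.36 to 1.10 (*Gm49759*), -0.62 to 0.88 (*2210406H18Rik*), -0.51 to 0.39 (*Gm15513*), -0.12 to 0.49 (*Gm42601*), -1.02 to 0.52 (*Gm38190*), -1.30 to 0.28 (*Gm29170*), -0.90 to 0.29 (*Gm44250*), -0.31 to 0.20 (*2510016D11Rik*), -1.59 to 0.081 (*Gm37648*), -1.23 to 0.14 (*Gm50010*) and -0.31 to 0.18 (*Zfyve28*). Scalings moved the median of all genes by at most 0.03. Below a mean of 100, the median SE of 0.56 to 0.71 limits what these samples can show for 1 gene.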
